A study of Schizosaccharomyces pombe with 12 samples.

Results

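The genes described here are those of the fission yeast Schizosaccharomyces pombe whose RNA level moved in a strain carrying 3 mutations but stayed close to the wild type (WT) in both strains carrying 1 of them. They were selected on measured values, from all 3 comparisons with WT. Counts were scaled to CPM (each gene's share of its library's counts, scaled to one common total), averaged over the 3 libraries of a genotype, and expressed as L, the log2 of mutant mean plus 0.5 CPM over WT mean plus 0.5 CPM. A gene was taken when its highest genotype mean reached 5 CPM, when L lay within 0.4 of zero in each single mutant, and when L was at least 0.8 away from zero in the triple mutant. Rows for the numbered non-coding RNAs (SPNCRNA) were left out. Of 5462 genes considered, 4825 reached 5 CPM, 2553 of these also stayed within 0.4 in both single mutants, and 49 met the whole rule. Among the 49, 44 were lower and 5 were higher in the triple mutant, which is 1.72% and 0.196% of the 2553 genes.

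RNA was poly(A)-selected and sequenced from log phase cultures grown vegetatively in YES, a rich medium made with yeast extract, at 30 °C. The 4 genotypes, with 3 replicate libraries each, were WT, ssu72-C13S, asp1-H397A, and the triple mutant asp1-H397A ssu72-C13S aps1∆. Each genotype was 1 strain by its strain number. No strain with aps1∆ alone and no strain with only a pair of the mutations was analysed here, so an effect of the aps1 deletion and an effect of combining the mutations cannot be told apart in any value below.

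Inositol pyrophosphates are highly phosphorylated signalling molecules that rise and fall with phosphate supply. Asp1 is an enzyme with a kinase domain that makes them and a pyrophosphatase domain, where H397A lies, that removes them. Aps1 is a Nudix-type pyrophosphatase that also breaks them down. Ssu72 is a protein phosphatase of the cleavage and polyadenylation factor that acts on the C-terminal tail of RNA polymerase II, and C13S replaces the cysteine of its active site. Precocious or delayed termination of a transcript upstream of a gene can change whether that gene is transcribed, which is how these factors are known to act on fission yeast phosphate genes.

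Total counts ranged from 23115806 to 29124916 per library, and a count of 0 allowed at most 3 counts, or 0.103 to 0.130 CPM, for counting error only. Correlations of log2 CPM within a genotype lay between 0.992 and 0.998. The lowest belonged to pairs with asp1-H397A replicate 3 or triple mutant replicate 1, 2 libraries that stood apart from their groups. The deviations of these 2 libraries from their genotype means correlated at 0.64, and the cause was not tested. In the triple mutant aps1 was at 35.9, 34.9 and 32.8 CPM, against 130.2, 130.1 and 112 CPM in WT. It was thus lower in every triple mutant library but not near 0, and how far the deletion reaches is not given in the sources used here. A point mutation is not checked by a gene's count; ssu72 was at 22.2 ± 4.60 CPM in the triple mutant and 16.6 ± 0.558 in WT, and asp1 at 56.7 ± 3.10 and 45.6 ± 0.600 (SD, n = 3).

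**Figure D1:**
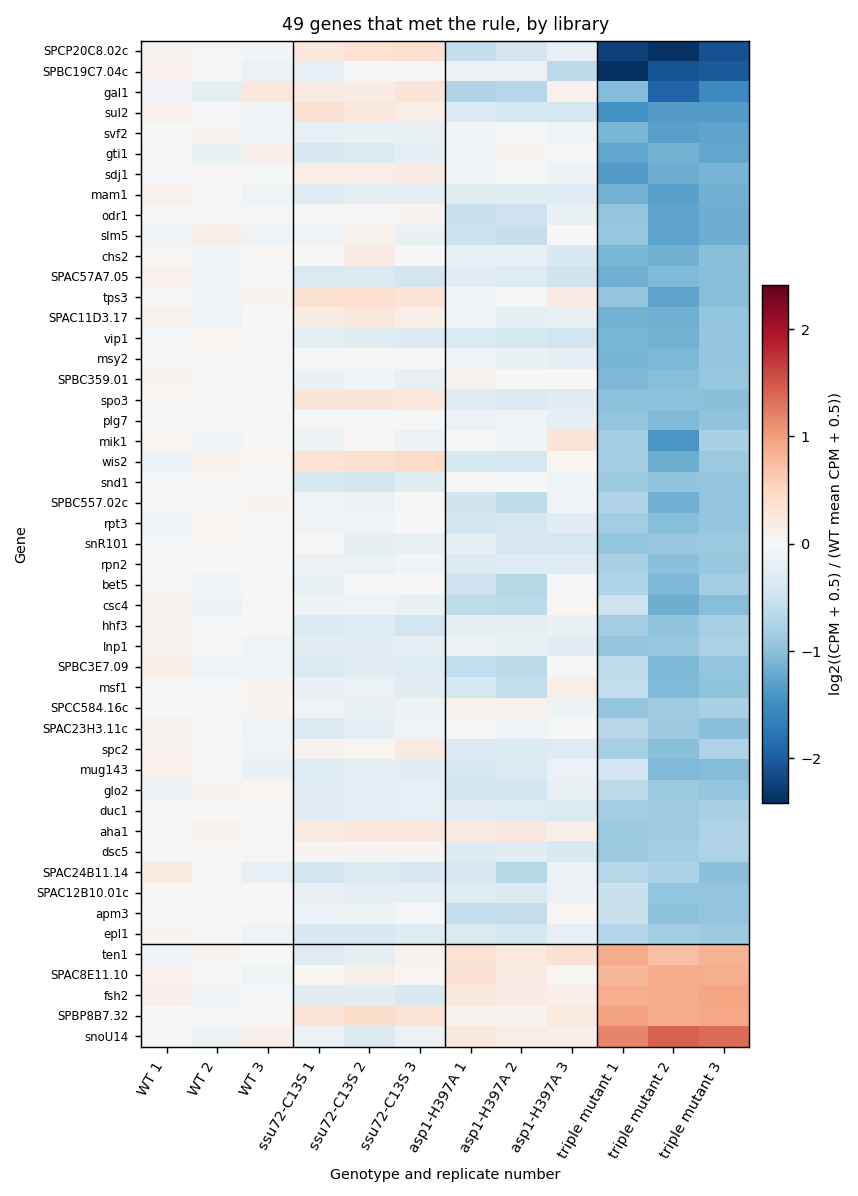
Log2 of each library's CPM plus 0.5 over the WT mean plus 0.5, for the 49 genes (rows) in the 12 libraries (columns, by genotype and replicate number), with the 44 lower genes above the 5 higher ones. The 3 triple mutant columns are blue for the lower genes and red for the higher ones because the genes were selected so; asp1-H397A replicate 3 is paler than replicates 1 and 2 for genes such as apm3, csc4 and msf1.

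The 44 lower genes had a median L of −0.93 in the triple mutant, with values from −2.24 to −0.80. Each library is from a whole culture, so fewer cells with an RNA and less of it per cell cannot be told apart. In ssu72-C13S their median L was −0.10 and 31 of the 44 were below zero. In asp1-H397A their median L was −0.31, 39 of the 44 were below zero, and 23 lay at −0.3 or lower, close to the limit of 0.4. All genes of at least 5 CPM had a median L of −0.27 in the triple mutant, compared with −0.16 in asp1-H397A and −0.07 in ssu72-C13S, so library-total scaling placed the typical gene below WT as well. The sum of the L values of both single mutants had a median of −0.38 over the 44 genes, and the triple mutant minus that sum ranged from −2.18 to −0.04. Its negative sign is fixed by the limits of the rule for every lower gene, so it says nothing about additivity.

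The plot of the triple mutant against each single mutant shows where these genes sit among the rest. Of 360 genes lower by 0.8 or more in the triple mutant, 116 were also lower by 0.4 or more in both single mutants, 135 in asp1-H397A but not ssu72-C13S, and 52 in ssu72-C13S but not asp1-H397A. Another 13 had passed 0.4 only in the opposite direction, and the remaining 44 are the genes described here. Of 106 genes higher by 0.8 or more, 45 were past 0.4 in the same direction in both single mutants, 33 in asp1-H397A, 21 in ssu72-C13S, and 2 only the opposite way.

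**Figure D2:**
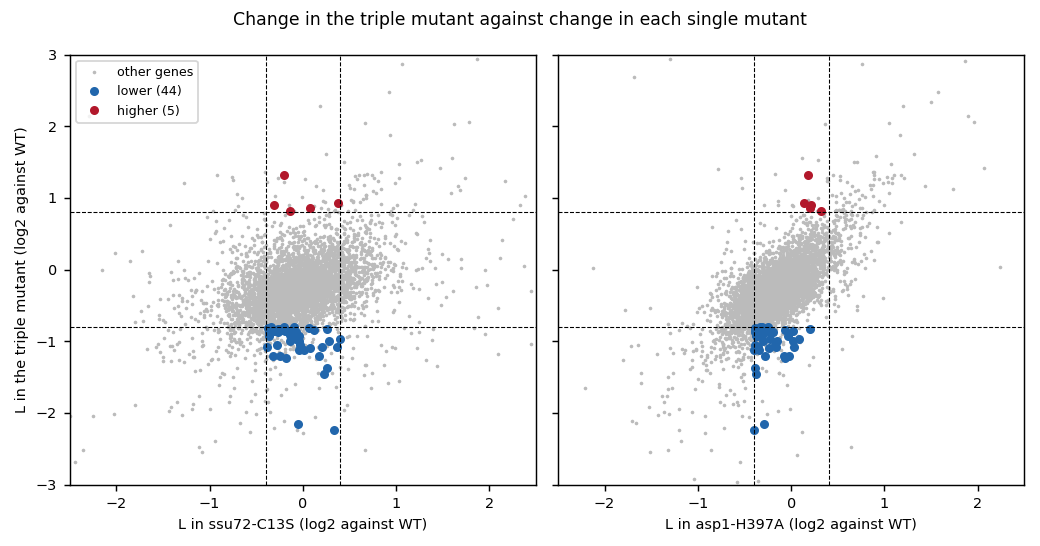
L in the triple mutant (vertical axis, log2) against L in ssu72-C13S (left) and in asp1-H397A (right), for genes of at least 5 CPM, with the 44 lower genes in blue, the 5 higher genes in red and the limits of the rule dashed. Of 4825 genes, 32 lie outside the axes of the left panel and 14 outside those of the right. The blue points crowd towards the limit of −0.4 in the asp1-H397A panel, where their median is −0.31, and are spread on both sides of zero in the ssu72-C13S panel.

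The lower gene of largest change, SPCP20C8.02c, encodes an uncharacterized protein. It stood at 10.4, 9.60 and 9.24 CPM in WT, at 11.9, 12.5 and 12.9 in ssu72-C13S, at 6.41, 6.97 and 8.49 in asp1-H397A, and at 1.64, 1.46 and 1.90 in the triple mutant. Every triple mutant library was below every other library, ssu72-C13S was the highest genotype, and the asp1-H397A libraries were all below WT. Its L was 0.34 in ssu72-C13S, −0.40 in asp1-H397A, where it met the limit only at the third decimal, and −2.24 in the triple mutant. Without asp1-H397A replicate 3 its L in asp1-H397A was −0.51, outside the rule.

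SPBC19C7.04c, also uncharacterized, was at 46.1, 43.5 and 39.0 CPM in WT, at 37.5, 42.1 and 44.0 in ssu72-C13S, at 38.9, 38.9 and 27.03 in asp1-H397A, and at 7.65, 9.77 and 10.2 in the triple mutant. Its 3 triple mutant values were all below the other 9, with L of −2.16 against −0.06 and −0.29 in the single mutants. It met the rule under the main setting and all 23 alternatives of scaling, filter, threshold and libraries tried.

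gal1 encodes galactokinase, the enzyme that phosphorylates galactose. It was at 24.7, 22.0 and 31.7 CPM in WT, at 30.3, 29.5 and 31.9 in ssu72-C13S, at 15.7, 16.1 and 28.1 in asp1-H397A, and at 12.4, 6.52 and 8.70 in the triple mutant. The lowest 3 values were those of the triple mutant, but asp1-H397A replicates 1 and 2 lay between them and WT, and replicate 3 was within the WT range. L in the triple mutant was −1.45, and L in asp1-H397A was −0.38, or −0.70 without replicate 3.

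sul2 encodes a sulfate transporter. Its levels were 56.2, 50.4 and 49.6 CPM in WT, at 67.1, 62.6 and 58.0 in ssu72-C13S, at 41.3, 38.9 and 38.5 in asp1-H397A, and at 18.7, 20.2 and 20.2 in the triple mutant. The 4 genotypes did not overlap, with ssu72-C13S highest and the triple mutant lowest (L of 0.26, −0.39 and −1.38 in the order ssu72-C13S, asp1-H397A, triple mutant).

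svf2 encodes a lipocalin-type protein annotated in ceramide transport from the endoplasmic reticulum (ER) to the Golgi. It was at 70.9, 73.4 and 65.7 CPM in WT, at 60.9, 62.0 and 62.0 in ssu72-C13S, at 65.9, 68.7 and 65.8 in asp1-H397A, and at 32.2, 28.0 and 28.6 in the triple mutant. The asp1-H397A libraries lay within the WT range while the triple mutant was far below both, with L of −1.23.

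gti1, an inducer of gluconate transport, was at 35.7, 31.6 and 38.2 CPM in WT, at 27.1, 27.3 and 29.8 in ssu72-C13S, at 32.7, 36.8 and 34.1 in asp1-H397A, and at 14.5, 15.7 and 14.4 in the triple mutant. Here the asp1-H397A libraries overlapped WT, ssu72-C13S was somewhat lower with L of −0.32, and the triple mutant was lowest with L of −1.21.

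**Figure D3:**
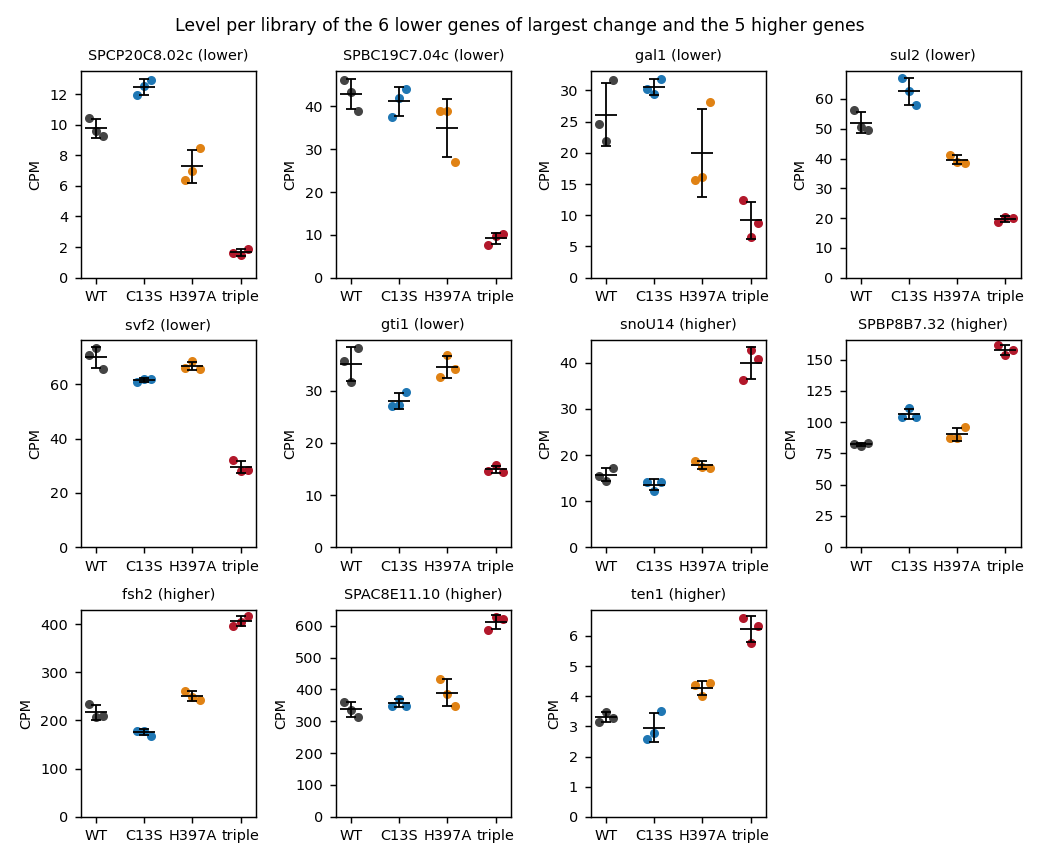
CPM per library (points) with the genotype mean and SD (bars, n = 3) for the 6 lower genes of largest change and the 5 higher genes, with C13S for ssu72-C13S and H397A for asp1-H397A; each panel has its own vertical axis from 0. In all 11 panels the 3 triple mutant points lie beyond the points of the other 9 libraries, as the 32.2 CPM of the highest triple mutant library of svf2 does below 60.9 CPM, its lowest value elsewhere.

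Several lower genes encode metabolic enzymes. tps3, annotated as a trehalose-phosphate synthase, was at 169 ± 7.88 CPM in WT, at 218 ± 6.04 in ssu72-C13S, at 173 ± 19.1 in asp1-H397A, and at 80.1 ± 9.16 in the triple mutant (SD, n = 3), so it was highest in one single mutant and lowest in the triple mutant (L of 0.36 and −1.08). sdj1 encodes glyoxylase III, which removes methylglyoxal, and went from 88.0 ± 1.75 CPM in WT to 37.8 ± 3.01 in the triple mutant, with L of −1.21. glo2, hydroxyacylglutathione hydrolase, acts in the glutathione route for the same compound and went from 101 ± 6.82 to 56.7 ± 6.41 CPM (L −0.83). The glucosidase gene SPAC23H3.11c had an L of −0.85, and the haloacid dehalogenase-like hydrolase gene odr1 one of −1.13. plg7, a lipase-like esterase, went from 103 ± 2.54 to 51.4 ± 2.20 CPM (L −0.996).

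Other lower genes act in transport across or between membranes. Beside sul2 and svf2, they include SPBC359.01, an amino-acid permease (40.5 ± 1.74 CPM in WT, 19.99 ± 1.27 in the triple mutant, L −1.002), and msy2, a mechanosensitive ion channel of the ER (110.2 ± 2.70 and 53.1 ± 3.84, L −1.05). mam1 encodes the transporter that exports the mating pheromone M-factor. Its values were 75.7, 70.0 and 65.9 CPM in WT, at 56.8, 60.05 and 60.7 in ssu72-C13S, at 58.9, 57.4 and 57.0 in asp1-H397A, and at 31.6, 28.1 and 31.3 in the triple mutant. Both single mutants lay below WT by a similar amount (L −0.25 and −0.29), and the triple mutant lay below both (L −1.20). Further genes of membrane traffic and the ER had L of −0.87 for bet5 of the vesicle-tethering TRAPP complex, −0.87 for lnp1 (lunapark, a shaper of the ER network), −0.84 for the signal peptidase subunit gene spc2, −0.82 for dsc5 and −0.80 for the AP-3 adaptor gene apm3.

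A group of genes acts on proteins and their folding or removal. rpt3 and rpn2 encode regulatory subunits of the proteasome and had L of −0.93 and −0.90 in the triple mutant. rpt3 went from 322 ± 13.7 CPM in WT to 169 ± 11.6, and rpn2 from 465 ± 4.18 to 248 ± 19.4. SPAC12B10.01c, an E3 ubiquitin ligase, had an L of −0.80. wis2, a cyclophilin, was at 458 ± 39.0 CPM in WT, at 603 ± 26.4 in ssu72-C13S, at 390.5 ± 71.6 in asp1-H397A, and at 234 ± 28.7 in the triple mutant.

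aha1 encodes an activator of the chaperone Hsp90. It was at 231, 254 and 230.1 CPM in WT, at 283, 285 and 289.7 in ssu72-C13S, at 276, 289 and 259 in asp1-H397A, and at 128, 131 and 144 in the triple mutant. All libraries of both single mutants lay above all of WT, whereas all triple mutant libraries lay below it, so its L of −0.82 was opposite in sign to the 0.26 and 0.20 of the single mutants. slm5 and msf1, aminoacyl-tRNA ligases for asparagine and phenylalanine, had L of −1.12 and −0.86.

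Genes of the cell cycle, cell wall and differentiation followed. mik1, a kinase that inhibits the cell cycle kinase Cdc2, was at 50.7, 46.4 and 49.3 CPM in WT, at 44.9, 49.7 and 44.1 in ssu72-C13S, at 47.8, 46.4 and 61.0 in asp1-H397A, and at 27.5, 18.2 and 28.1 in the triple mutant. The single mutants overlapped WT except for asp1-H397A replicate 3, which was higher, and the triple mutant was below all (L −0.97). chs2, a chitin synthase-like gene, was at 40.2, 37.3 and 40.5 CPM in WT, at 39.0, 45.4 and 39.8 in ssu72-C13S, at 34.1, 35.3 and 30.5 in asp1-H397A, and at 18.03, 17.4 and 19.2 in the triple mutant. ssu72-C13S overlapped WT, asp1-H397A was a little below, and the triple mutant stood apart (L −1.09). The sporulation gene spo3 went from 54.7 ± 0.666 to 27.1 ± 0.327 CPM (L −0.997), with 66.7 ± 0.959 in ssu72-C13S.

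Genes acting on chromatin and RNA included hhf3, 1 of 3 genes for histone H4. It was at 697, 642 and 659.5 CPM in WT, at 532, 535 and 482 in ssu72-C13S, at 569, 572 and 592 in asp1-H397A, and at 374, 338 and 381 in the triple mutant, so no genotype overlapped another. Its copies hhf1 and hhf2 encode a near-identical product, so the division of reads between the copies is uncertain. In the fit described below hhf1 and hhf2 had fitted log2 changes of −0.04 and 0.06 with adjusted p of 0.774 and 0.476 (edgeR quasi-likelihood test, Benjamini-Hochberg). epl1, a subunit of the NuA4 histone acetyltransferase, had an L of −0.80. The RNA-binding protein gene vip1 had the highest CPM in WT of the lower genes, without correction for gene length (842 ± 26.2 CPM in WT, 406 ± 31.6 in the triple mutant, L −1.05), and snd1, a tudor domain nuclease, had an L of −0.93. SPAC11D3.17, a zinc cluster transcription factor, went from 27.3 ± 1.72 to 12.7 ± 1.18 CPM (L −1.08). snR101, a box H/ACA small nucleolar RNA, had an L of −0.91, though such RNAs are poorly sampled by poly(A) selection.

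The remaining lower genes have no role that can be stated with certainty here. SPAC57A7.05 (L −1.09), SPBC557.02c (−0.93), csc4 (−0.87), SPBC3E7.09 (−0.86), SPCC584.16c (−0.85), mug143 (−0.83), duc1 (−0.83) and SPAC24B11.14 (−0.81) fall here. SPAC24B11.14 had the lowest CPM of the 44 in WT, at 6.82 ± 1.07, again without correction for length. In WT the median over the 44 genes was 66.0 CPM, against 76.4 CPM for all genes of at least 5 CPM. 43 were protein-coding and 19, 16 and 9 lay on chromosomes I, II and III, where 45.3%, 36.6% and 18.03% of the genes of at least 5 CPM lie. No pair of the 49 genes was adjacent or overlapping in the annotation.

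Of the 5 higher genes, snoU14 changed most. It encodes the box C/D small nucleolar RNA U14, which is needed for processing of ribosomal RNA. Its values were 15.5, 14.5 and 17.2 CPM in WT, at 14.2, 12.2 and 14.3 in ssu72-C13S, at 18.8, 17.5 and 17.2 in asp1-H397A, and at 36.2, 42.8 and 40.9 in the triple mutant. The 9 other libraries all lay below 20 CPM and the triple mutant was 2.5 times WT with L of 1.32. The mature RNA has no poly(A) tail, so these counts measure the part of it, or of its precursors, recovered by poly(A) selection.

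SPBP8B7.32, uncharacterized, was at 82.2, 80.9 and 83.3 CPM in WT, at 104, 111 and 104 in ssu72-C13S, at 87.0, 87.3 and 96.2 in asp1-H397A, and at 161, 154 and 157 in the triple mutant. All 9 mutant libraries exceeded all of WT and the triple mutant exceeded all others (L 0.37, 0.13 and 0.93). fsh2, a serine hydrolase-like gene, was at 235, 206 and 209 CPM in WT, at 178, 179 and 168 in ssu72-C13S, at 262, 248 and 242 in asp1-H397A, and at 395, 405 and 417 in the triple mutant. Here the genotypes did not overlap, and ssu72-C13S was below WT (L −0.31) while the triple mutant was above it (L 0.90).

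SPAC8E11.10, annotated as a sorbose reductase, was at 361, 336 and 315 CPM in WT, at 349, 370.4 and 349 in ssu72-C13S, at 433, 384 and 349 in asp1-H397A, and at 586, 627 and 622 in the triple mutant. WT and both single mutants overlapped, and L in the triple mutant was 0.86. ten1, a subunit of the telomere cap, was low throughout, at 3.16, 3.48 and 3.28 CPM in WT, at 2.59, 2.78 and 3.52 in ssu72-C13S, at 4.36, 4.0 and 4.42 in asp1-H397A, and at 6.61, 5.76 and 6.32 in the triple mutant. It passed the limit of 5 CPM through the triple mutant alone, with L of 0.82. All 5 higher genes had positive L in asp1-H397A, with a median of 0.20, and 2 of the 5 had positive L in ssu72-C13S.

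The genes nearest the limit of 0.8 show how fine the boundary is. The lower genes just inside were epl1, apm3 and SPAC12B10.01c, all at −0.80, and those just outside were rsv2 and brr2 at −0.80 and sir1 at −0.79. On the higher side ten1 at 0.82, SPAC8E11.10 at 0.86 and fsh2 at 0.90 were inside, and SPBC2A9.03 at 0.79, SPBP4H10.14c at 0.77 and SPAC922.04 at 0.75 were outside.

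The same 12 libraries were fitted gene by gene with edgeR's quasi-likelihood test after TMM scaling, which sets a trimmed mean of gene ratios to a common level and removes most of the shift of the typical gene seen in L. With an adjusted p under 0.05 over 6189 genes, 25.7% were called lower and 26.2% higher in the triple mutant. All 44 lower genes were called lower and all 5 higher genes were called higher there, which follows from how they were chosen and is not evidence about them. In ssu72-C13S, where 29.1% of genes were called lower and 25.5% higher, 11 of the 44 lower genes were called lower and 6 higher. In asp1-H397A, where 18.6% were called lower and 25.8% higher, 0 of the 44 were called lower and 4 were called higher; at an unadjusted p under 0.05 edgeR gave 2 lower, and DESeq2 gave 1 after adjustment. Hence 26 of the 44 were called in neither single mutant and 3 in both. The matching shares of all genes were not worked out, so these counts cannot be set against a background. The 5 higher genes were all called higher in asp1-H397A, and 1 was called lower and 1 higher in ssu72-C13S. The rule also limited L in both single mutants. The single mutant counts thus follow in part from the choice and are not evidence about the genes. Being within 0.4 in L thus did not mean that a gene went uncalled in the fit. The fit and L are scaled differently, however. In asp1-H397A the median L of all genes of at least 5 CPM was −0.16 with library totals and 0.06 under TMM. How many of these calls reflect the scaling was not tested.

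In 39 of the 44 lower genes all triple mutant libraries lay below the other 9, which held for 21.1% of genes of at least 5 CPM. The 5 exceptions were csc4, SPBC3E7.09, msf1, SPAC24B11.14 and apm3. For apm3 the triple mutant libraries were at 46.6, 34.1 and 35.4 CPM, and asp1-H397A at 45.4, 45.3 and 70.2, so triple mutant replicate 1 lay among the asp1-H397A libraries. All triple mutant libraries of all 5 higher genes lay above the other 9, which held for 4.23% of genes of at least 5 CPM. These shares, too, rest on the contrast that chose the genes.

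How the libraries were scaled decided much of the list. Under TMM scaling the median L of all genes of at least 5 CPM in the triple mutant moved from −0.27 to 0.03, and the rule then took 23 lower and 12 higher genes, of which 10 and 1 were among the 49. All 44 lower genes still had negative L under TMM, between −1.97 and −0.49 with a median of −0.63, but 34 no longer reached 0.8. Those that still met the rule were SPCP20C8.02c, SPBC19C7.04c, gal1, sul2, svf2, gti1, sdj1, mam1, odr1 and slm5. The 5 higher genes moved up to between 1.10 and 1.63, and only snoU14 stayed within 0.4 in both single mutants. The imbalance of 44 lower to 5 higher genes thus depended on the scaling, and which scaling comes closer to RNA per cell cannot be told from these files.

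**Figure D4:**
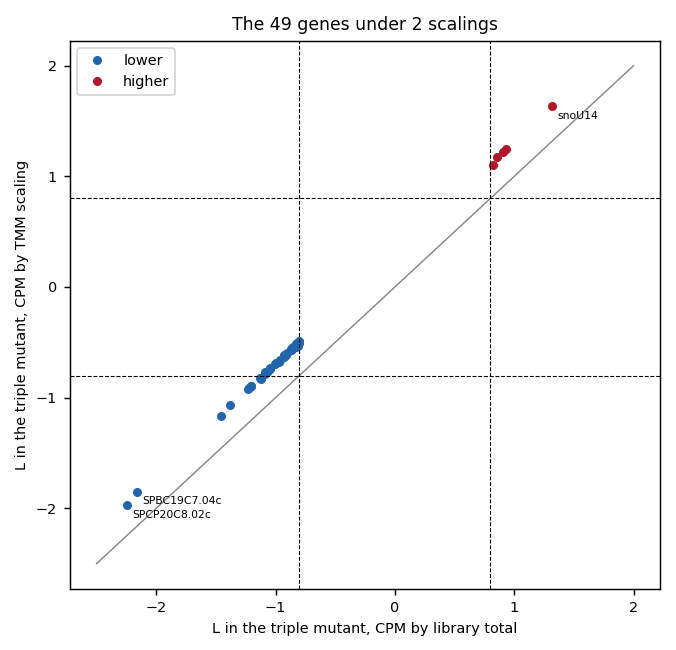
L in the triple mutant with CPM scaled by TMM (vertical axis) against L with CPM scaled by library total (horizontal axis), for the 44 lower genes (blue) and 5 higher genes (red); the grey line is equality and dashed lines mark −0.8 and 0.8. All points lie above the line, and 10 of the 44 blue points lie below −0.8 on the vertical axis.

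A pair of libraries also weighed on the list. Triple mutant replicate 1 was the highest of its group in 23 of the 44 lower genes, and so was asp1-H397A replicate 3 in its group. Both are smaller shares than the 63.0% and 57.2% of genes of at least 5 CPM, so the lower genes did not stand out in this. Without asp1-H397A replicate 3, 33 lower genes met the rule, 31 of them among the 44, because 13 of the 44 passed 0.4 in asp1-H397A. Without triple mutant replicate 1, 91 lower genes met it, 42 of them among the 44. Without both, there were 47 lower and 5 higher genes, of which 29 and 4 were among the 49. SPBC19C7.04c, svf2, gti1 and mam1 met the rule under the main setting and each of the 23 alternatives.

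The genes beside the selected ones were not used to choose them and were tested in the fit. Of 89 tested genes adjacent to one of the 49 and not among them, 26 were called higher and 28 lower in the triple mutant, or 60.7%, against 51.9% of all 6189 genes. With at least a 2-fold fitted change as well, it was 14 genes or 15.7%, against 11.4% of all genes. Non-coding RNAs (SPNCRNA) weighed on these shares. Of 14 adjacent ones tested, 3 were called higher and 9 lower (85.7%), and 5 were 2-fold changed. Of the 49 genes, 30 overlapped another annotated gene, 26 of them a gene on the opposite strand. Of 38 tested overlapping genes 5 were called higher and 13 lower (47.4%), and 8 were 2-fold changed (21.1%). The 17 non-coding RNAs among them had 2 called higher and 6 lower (47.1%), and 7 of the 2-fold changes. Whether the counting used the strand is not given in the sources used here, so reads of overlapping genes on opposite strands may not be fully separated.

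At SPBC19C7.04c both overlapping non-coding RNAs moved opposite to the gene. SPNCRNA.1553, on the other strand, was at 5.36, 3.71 and 4.60 CPM in WT, at 9.71, 9.47 and 9.12 in ssu72-C13S, at 5.12, 4.73 and 5.74 in asp1-H397A, and at 8.38, 8.49 and 7.61 in the triple mutant. It was higher in ssu72-C13S and in the triple mutant by similar amounts, with fitted log2 changes of 1.078 and 1.153 ± 0.12 (SE) and an adjusted p of 4.8e-06 for the latter (edgeR), whereas the gene itself was low in the triple mutant alone. In asp1-H397A SPNCRNA.1553 was called higher as well, by a smaller 0.41. SPNCRNA.1554, on the same strand and annotated as a possible alternative UTR, was at 2.33, 2.52 and 2.38 CPM in WT, at 1.29, 0.782 and 1.92 in ssu72-C13S, at 3.32, 3.92 and 3.07 in asp1-H397A, and at 5.97, 6.12 and 6.84 in the triple mutant. Its order was thus ssu72-C13S below WT, WT below asp1-H397A, and asp1-H397A below the triple mutant, without overlap, with a fitted log2 change of 1.70 ± 0.21 in the triple mutant (edgeR adjusted p 1.3e-05).

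gal1 lies beside gal10, the gene for the epimerase of the same pathway, on the opposite strand. gal10 was at 10.8, 9.22 and 9.15 CPM in WT, at 15.6, 15.5 and 18.1 in ssu72-C13S, at 2.80, 2.64 and 5.74 in asp1-H397A, and at 3.45, 2.296 and 2.47 in the triple mutant. For gal10 asp1-H397A and the triple mutant overlapped and both lay below WT, whereas for gal1 these 2 genotypes did not overlap. gal1 was below WT in asp1-H397A replicates 1 and 2 as well (15.7 and 16.1 CPM), and replicate 3 was the highest of that group for both genes. The fitted log2 change of gal10 in the triple mutant was −1.52 ± 0.21 (edgeR adjusted p 5.2e-05), and that in asp1-H397A was −1.17. Of the other genes of this cluster, tgd1 had a fitted log2 change of −1.23 ± 0.18 in the triple mutant (edgeR adjusted p 6.0e-05) and gal7 had 0.34 ± 0.17, which did not pass the test (edgeR adjusted p 0.119). tgd1 was called lower in asp1-H397A already (−0.98) and was called higher in ssu72-C13S (0.55).

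SPBC359.01, the amino-acid permease gene, was flanked by a pair of non-coding RNAs that were also lower in the triple mutant. SPNCRNA.291 was at 16.2, 10.4 and 11.96 CPM in WT, at 8.64, 8.06 and 8.30 in ssu72-C13S, at 6.97, 6.31 and 12.6 in asp1-H397A, and at 2.36, 2.08 and 1.47 in the triple mutant. SPNCRNA.1309 was at 5.80, 5.70 and 5.41 CPM in WT, at 3.36, 3.40 and 2.90 in ssu72-C13S, at 3.04, 3.23 and 4.19 in asp1-H397A, and at 0.601, 1.09 and 0.519 in the triple mutant. Both were lowest in the triple mutant without overlap, with fitted log2 changes of −2.38 ± 0.24 and −2.59 ± 0.22 (edgeR adjusted p 2.7e-06 and 4.3e-07). The next gene, alr2, had a fitted log2 change of −3.24 ± 0.22 in the triple mutant, −1.60 in ssu72-C13S and −0.78 in asp1-H397A (edgeR adjusted p 7.5e-08, 3.8e-06 and 0.0014). Its level was low, at 3.23, 2.91 and 2.81 CPM in WT and 0.321, 0.255 and 0.173 in the triple mutant. The latter values lie near the counting limit given above, so the size of this change is uncertain. In ssu72-C13S SPNCRNA.291 and SPNCRNA.1309 were also called lower (−0.59 and −0.78), and in asp1-H397A SPNCRNA.1309 was (−0.47), while SPNCRNA.291 did not pass (−0.37). SPBC359.01 itself had fitted log2 changes of −0.11 in ssu72-C13S, which did not pass, and 0.25 in asp1-H397A, where it was called higher.

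SPCP20C8.03, next to SPCP20C8.02c, was at 3.12, 3.17 and 3.24 CPM in WT, at 4.03, 4.26 and 3.68 in ssu72-C13S, at 2.08, 1.94 and 2.75 in asp1-H397A, and at 0.842, 0.401 and 0.606 in the triple mutant. It had the same order of genotypes as its neighbour, with a fitted log2 change of −2.06 ± 0.20 in the triple mutant (edgeR adjusted p 1.9e-06), and 0.36 and −0.27 in the single mutants, which did not pass (0.056 and 0.181). On the other side, beyond SPNCRNA.449 at 0 CPM in every library, SPCP20C8.01c was lower in asp1-H397A already. Its fitted log2 changes were −1.46 in the triple mutant and −0.86 in asp1-H397A (edgeR adjusted p 8.7e-06 and 0.00084). In ssu72-C13S it had −0.16, which did not pass (0.401).

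SPBP8B7.32, one of the higher genes, lay beside mbx2, which encodes a MADS-box transcription factor. mbx2 was at 22.1, 23.3 and 21.6 CPM in WT, at 17.8, 18.3 and 19.5 in ssu72-C13S, at 46.5, 49.8 and 47.6 in asp1-H397A, and at 54.7, 57.8 and 51.9 in the triple mutant. It was raised in asp1-H397A already, with fitted log2 changes of 1.33 there and 1.61 ± 0.09 in the triple mutant (edgeR adjusted p 1.3e-08). On the other strand of SPBP8B7.32, SPNCRNA.1626 was lower in the triple mutant (−1.05 ± 0.10, edgeR adjusted p 1.6e-06), as was the adjacent SPNCRNA.1627 (−1.68 ± 0.19, 5.9e-06).

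Other neighbours with a 2-fold fitted change in the triple mutant were mostly changed in a single mutant too. guf1, upstream of wis2, had fitted log2 changes of −2.90 in the triple mutant and −3.15 in ssu72-C13S. SPACUNK4.17, beside tps3, had −2.28, with −1.06 in ssu72-C13S and −1.31 in asp1-H397A, and mug153, overlapping tps3 on the same strand, had −1.54 with −0.76 in ssu72-C13S. rga5, a GTPase-activating protein gene beside SPBC557.02c, had 1.61, 1.07 and 1.45 in the triple mutant, ssu72-C13S and asp1-H397A, and pabp, the poly(A) binding protein gene beside SPAC57A7.05, had 1.11, −0.39 and 0.79. All of these triple mutant values passed the test.

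The antisense or flanking non-coding RNAs SPNCRNA.744 (at SPAC57A7.05, −2.03), SPNCRNA.1036 (wis2, −1.47), SPNCRNA.1611 (hhf3, −1.89), SPNCRNA.1130 (msf1, −2.01) and SPNCRNA.717 (fsh2, −1.11) were lower in fitted log2 in the triple mutant. All 5 were lower in asp1-H397A as well, by −2.17, −1.81, −2.295, −1.57 and −1.66, and each of these 10 values passed the test. SPNCRNA.1660, on the other strand of odr1, had −1.08 in the triple mutant and 0.92 in ssu72-C13S. The uncharacterized genes SPBC1105.13c, beside hhf3, and SPAC8E11.12, beside SPAC8E11.10, had −1.22 and −2.24 in the triple mutant and were also lower in asp1-H397A (−0.68 and −1.64). Of these, SPNCRNA.1611, SPNCRNA.717 and SPNCRNA.1660 were at under 2 CPM in WT.

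Of 27 functional gene lists, 5 held 1 of the 49 genes each. The lists were chosen with earlier results of these data known, and their other genes are given by counts from the fit, without a test of the list. Over all listed genes outside the 49, 234 of 592 tested were called higher and 140 lower in the triple mutant.

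The list of heat shock proteins and chaperones, which holds aha1, leaned down in the triple mutant. Of its 26 other genes, 20 were called lower and 3 higher, with a median fitted log2 change of −0.34 against −0.01 for all genes tested. In ssu72-C13S the same genes were divided, with 10 lower and 11 higher and a median of 0.01, and in asp1-H397A there were 8 lower and 6 higher. The 2-fold changed genes were the Hsp70 gene ssa1 (−2.22), the disaggregases hsp104 (−1.15) and hsp78 (−1.07), and the small heat shock protein gene hsp16 (−1.05). All 4 were called higher in ssu72-C13S, with fitted log2 changes of 0.70, 0.77, 0.42 and 1.48, and so had opposite signs there and in the triple mutant, as aha1 did. In asp1-H397A ssa1 (−0.63) and hsp16 (−0.40) were called lower already, hsp104 (0.09) and hsp78 (−0.36) did not pass, and aha1 was called higher (0.43). The genes called higher in the triple mutant were ssa2, sks2 and ssc1.

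The list of pheromone and mating genes, which holds mam1, had 16 genes called lower and 5 called higher of 30 others in the triple mutant, with a median fitted log2 change of −0.33. In ssu72-C13S it was already 17 lower and 7 higher with the same median of −0.33, whereas in asp1-H397A 6 were called lower and 10 higher, with a median of 0.14. The 2-fold changed genes were the transcription factor gene map1 (−1.93), the meiosis regulator mei2 (−1.76), the pheromone receptor gene mam2 (−1.31), and the pheromone genes map2 (−1.13) and mfm1 (−1.12). All 5 were called lower in ssu72-C13S too, as was mam1 with a smaller fitted log2 change of −0.22 there. In asp1-H397A map2 (−0.79), mei2 (−0.70) and mam2 (−0.34) were called lower as well. mfm1 (−0.32), map1 (0.20) and mam1 (−0.06) did not pass in asp1-H397A.

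In the remaining lists more companions were called higher than lower in the triple mutant, opposite to the gene among the 49. This holds after TMM scaling; by L with library totals, the medians of the same companions were −0.19 for the glucan and chitin list, −0.28 for the cell cycle list and −0.25 for the histone list, near the −0.27 of all genes. Of 21 other glucan and chitin genes 10 were called higher and 1 lower, including the chitin synthase chs1 (fitted log2 1.67) and the glucanosyltransferase gas1 (1.03), while the fitted log2 of chs2 was −0.80. In ssu72-C13S it was already 13 higher and 2 lower, and in asp1-H397A 15 and 1, with gas1 at 1.04 and 0.995. Of 32 other cell cycle and MBF target genes 12 were called higher and 2 lower (cdc25 and res1), while mik1 had −0.69. In ssu72-C13S 11 of them were called higher and 5 lower, and in asp1-H397A 19 and 1. Of 13 other histone and histone-related genes 4 (hht2, pht1, ams2 and cnp1) were called higher and 1, hht1, lower, while hhf3 had −0.56. The histone genes hhf1, hhf2, hht3, hta1, hta2 and htb1 did not pass. Over the alternatives of the fit 2 to 6 of the 13 were called higher and 0 to 2 lower. In ssu72-C13S it was 1 higher and 4 lower, and in asp1-H397A 3 and 0. Of all genes tested, 26.2% were called higher and 25.7% lower in the triple mutant.

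Genes that work with others of the 49 were looked up by product name after the values had been seen, and are given as L with no test. Of 35 proteasome genes 34 had negative L in the triple mutant, with a median of −0.55 against −0.34 in asp1-H397A and −0.04 in ssu72-C13S. The 35 include rpt3 and rpn2, and all genes of at least 5 CPM had medians of −0.27, −0.16 and −0.07 in the same order. rpn6 and rpt2, at −0.96 and −0.97, were as low as rpt3 and rpn2 but had passed 0.4 in asp1-H397A, so the rule did not take them. Under TMM scaling the proteasome median in the triple mutant was −0.25 and 32 of the 35 were below zero, against a median of 0.03 for all genes. Of 5 trehalose genes, tps1 (−1.33) and the trehalase gene ntp1 (−0.79) were low beside tps3 in the triple mutant, while tpp1 (−0.31) and tps2 (−0.10) were near the median of all genes, and all 5 had positive L in ssu72-C13S. Under TMM 4 of these 5 were below zero in the triple mutant.

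For the other companions the direction depended on the scaling or the gene. Over 35 aminoacyl-tRNA ligase genes, slm5 and msf1 included, 32 had negative L in the triple mutant. The median was −0.26, close to the −0.27 of all genes, and it turned to 0.04 under TMM. The other Dsc E3 ligase genes beside dsc5 lay between −0.54 and −0.09, and the median of the 5 turned from −0.27 to 0.04 under TMM. Of 55 small nucleolar RNA genes 9 reached 5 CPM, with L from −0.91 (snR101) to 1.32 (snoU14) in the triple mutant. This places the snoU14 and snR101 values at the ends of a group that moved in both directions. Both were selected for an L at least 0.8 away from zero, so their place at the ends is not evidence about them.

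**Figure D5:**
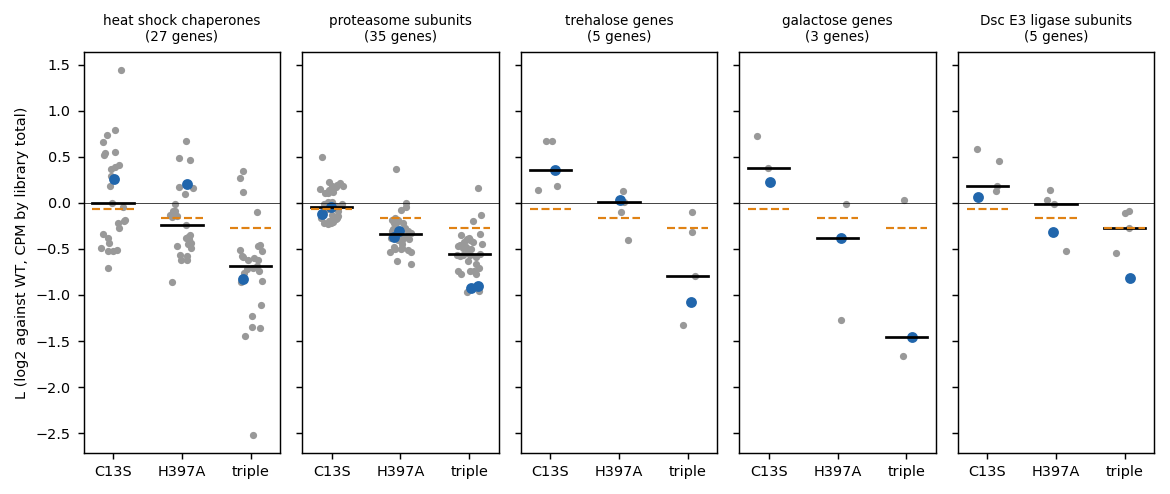
L (log2 against WT, CPM by library total) in ssu72-C13S, asp1-H397A and the triple mutant for 5 gene groups, with genes among the 49 in blue, others in grey, the group median as a black line and the median of all genes of at least 5 CPM as a dashed orange line. Heat shock genes are centred near 0 in ssu72-C13S and at −0.69 in the triple mutant, with 24 of 27, aha1 included, below zero there. The median of all genes of at least 5 CPM in the triple mutant was −0.27. Proteasome genes step down from −0.04 to −0.34 to −0.55.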

How the data were processed

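The authors deposited a table of raw read counts per gene with 1 column per library; all 12 columns were matched to samples by title and 0 were left unused. The submitters' processing notes name HISAT2 2.1.0, SAMtools, HTSeq 0.10.0, DESeq2 and the genome build ASM294v2; the counting options are not given in the sources used here. Libraries were made with a stranded poly(A) kit, per the labels' protocols. Of the table's rows 1 repeated an identifier with 0 counts and was dropped, leaving 6986 genes. Identifiers were matched to RefSeq ASM294v3, 6833 by locus tag and 13 by synonym, with 140 unmatched; the builds differ, so no coordinates or sequences are printed and the annotation served for names, products, strand and gene order. All 49 selected genes matched, and all 49 passed the expression filter of the fit.

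CPM used library totals, with a pseudocount of 0.5. The fit used edgeR 4.0.16 (filterByExpr with a minimum count of 10, TMM factors 0.847 to 1.13, glmQLFit with the legacy option and glmQLFTest) in R 4.3.3, with all 12 libraries and a coefficient per genotype, and Benjamini-Hochberg adjustment over 6189 genes. Standard errors are the log2 change divided by the square root of F. The code was tested on simulated data. DESeq2 1.42.0 and other alternatives are given with the sensitivity of the results.

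The selected genes and the functional lists were chosen with earlier results of these data known. All selected genes are named, and neighbours and listed genes are named where they passed the test with a 2-fold fitted change. alr2, SPCP20C8.01c, tgd1, gal7, the histone H4 copies and the other named histone genes were chosen after their values were seen. So were the listed genes called in the direction of fewer calls, and the 6 product-name groups. Replicates are called separate experiments in the series' design text, without saying whether cultures were separate, so p-values measure the spread between these libraries. In their deviations from the genotype mean, same-numbered libraries of different genotypes correlated between −0.43 and 0.33 over 18 pairs. With 3 libraries per genotype this cannot decide whether the numbers pair the samples, and the fit used no pairing.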

Additional observations from a re-analysis of the deposited data

How the results depend on the processing

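Counts of genes meeting the rule stayed within 1.5 times the 5 higher and 44 lower genes under totals without SPNCRNA rows (5 and 44), pseudocounts of 0.1 (6 and 43) and 2 (6 and 37), minimum means of 1 CPM (5 and 51) and 20 CPM (4 and 39) and group medians (7 and 42), though with medians only 28 of the lower genes were among the 44. They moved further under TMM (12 and 23), DESeq2's size factors (12 and 21), and a limit of 1 in place of 0.8 (1 and 17). Leaving out 1 library in turn gave 5 to 8 higher genes (8 without WT replicate 2) and 33 to 91 lower genes (91 without triple mutant replicate 1). TMM without asp1-H397A replicate 3 and triple mutant replicate 1, an alternative chosen after seeing the data, gave 9 and 19. Of the 49 genes, 11 met the rule under TMM, 33 without both libraries, 22 with each library left out, and 4 in all 24 settings. Leaving out both libraries raised the genes called in asp1-H397A against WT from 2747 to 4537; the cause was not tested. The sources used here do not say whether the replicate numbers pair the samples. With the replicate number as a replicate block, 3061 genes were called in the triple mutant (3210 without), 3283 in ssu72-C13S (3384), 2640 in asp1-H397A (2747), 52 adjacent genes (54), 17 overlapping genes (18) and 364 listed genes (374). Heat shock genes called lower in the triple mutant numbered 17 to 22 and pheromone genes 13 to 17 over the alternatives of the fit. The planned count of promoter motifs was not run, because no promoter sequences of the files' build were used here.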
